A study of Mus musculus with 6 samples.

Results

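The transcripts described here are those of the mitochondrial genome (mtDNA), taken as every gene that the deposited expression table places on chromosome MT. There were 37 of them among 34250 genes in all, comprising 13 mRNAs, 2 rRNAs and 22 tRNAs, and 36 passed the filter of at least 1 RPKM (read count scaled by exon length and by the library's total over all genes) in at least 3 libraries. The gene left out was mt-Tg, the tRNA for glycine. Gene expression was profiled by RNA sequencing in 6 mouse libraries. The study describes them as oligodendrocyte progenitor cells (OPCs, the precursors of the myelin-forming cells of the brain). Of the 6, 3 were treated with fibrinogen, the blood protein that is turned into fibrin during clotting, and 3 were controls. Both groups were labelled wild-type (WT) C57BL/6 brain, with no other allele or agent. In the table the columns were numbered as mice and those of the fibrinogen group carried an amount of 2.5 mg. The study's methods describe OPCs cultured from the cortex of newborn pups, with fibrinogen given to the cells at 2.5 mg/mL. An age per library was not given. The libraries held 36670999 to 44448983 reads with fibrinogen and 38242049 to 42744038 in controls.

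The label OPC was checked against marker genes. The summed level of 8 OPC markers was 68.6 to 70.2 RPKM with fibrinogen and 43.7 to 46.1 RPKM in controls, and 6 of the 7 tested were called higher with fibrinogen (limma adjusted p under 0.05), where 5.87% of all genes tested were called higher and 5.62% lower. That of 10 neuron markers was far higher than either, at 1267 to 1594 RPKM with fibrinogen and 1283 to 1452 RPKM in controls, and that of 7 oligodendrocyte markers was 190.0 to 309 RPKM with fibrinogen and 158 to 249.9 RPKM in controls. For 6 astrocyte markers it was 253 to 272 RPKM with fibrinogen and 331 to 446 RPKM in controls, with control replicate 3 the highest. For 6 microglia markers it was 43.4 to 47.9 RPKM with fibrinogen and 43.1 to 48.2 RPKM in controls, and for 5 endothelial markers 18.9 to 23.1 RPKM with fibrinogen and 20.6 to 31.4 RPKM in controls. By the same test 3 of the 7 oligodendrocyte markers and 1 of the 10 neuron markers were called higher and none lower, 1 of the 6 astrocyte markers was called higher and 1 lower, and none of the 5 endothelial markers was called. The microglia markers moved apart behind their similar sums, with 1 called higher (Cx3cr1) and 1 lower (C1qa), 4 of 6 above all controls and 1 below, and log2 changes from -1.35 to 0.94. No marker was at 0 in any library. The median marker was at 61.9 to 72.0 RPKM for neurons and at 4.44 to 6.84 RPKM for OPCs over the 6 libraries. The libraries thus held transcripts of several cell types, and these markers do not bear out libraries made mostly of OPCs. In bulk RNA fewer cells of a type and less RNA per cell cannot be told apart. The part of these markers in the results below was not tested.

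The mitochondrial genome is a small circle that carries only genes of the respiratory chain and of its own translation. Both strands are transcribed as long precursors in which tRNAs lie between most mRNAs and rRNAs, and excision of the tRNAs by nuclear-encoded enzymes releases the RNAs on either side. Most of the mature mRNAs receive short poly(A) tails, mt-Nd6 being the known exception, whereas a mature tRNA ends in CCA and has no such tail. The study's library kit is one for stranded mRNA, so reads on a tRNA gene in these data need not come from mature tRNA.

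Transcripts of chromosome MT took 4.78%, 4.37% and 3.62% of the reads in fibrinogen replicates 1, 2 and 3, against 3.88%, 4.25% and 3.75% in control replicates 1, 2 and 3. The ranges overlapped, and the lowest share of all was in a fibrinogen library. Nearly all of these reads fell on mRNA genes, with 4.51%, 4.12% and 3.39% of all reads with fibrinogen and 3.67%, 4.04% and 3.58% in controls. The 2 rRNAs took 0.133%, 0.126% and 0.114% with fibrinogen and 0.130%, 0.122% and 0.0929% in controls. Only the tRNA class had groups that did not overlap. The 22 tRNA genes took 0.136%, 0.122% and 0.112% of the reads with fibrinogen, against 0.0799%, 0.0887% and 0.0789% in controls, a ratio of means of 1.498. The tRNA genes of both strands differed in this way, with shares of 0.0406% ± 0.0036 (SD, n = 3) with fibrinogen and 0.0280% ± 0.0040 in controls for the 14 on the plus strand and of 0.0829% ± 0.0089 with fibrinogen and 0.0545% ± 0.0043 in controls for the 8 on the minus strand. Set against the mitochondrial mRNAs of the same library, there were 3.03, 2.95 and 3.31 tRNA reads per 100 mRNA reads with fibrinogen and 2.18, 2.20 and 2.21 in controls. The tRNA shares were already apart and the mRNA shares overlapped, so separation of this ratio is not independent of the tRNA shares. The library total cancels from the ratio, which lay higher in every fibrinogen library than in any control. Its size does depend on how reads that also fit a nuclear copy of mtDNA, described below, were assigned. The 7 genes of such a copy on chromosome 1 held 1.32% to 1.72% of the reads, and these are not in the ratio. No test was made of these class values.

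**Figure D1:**
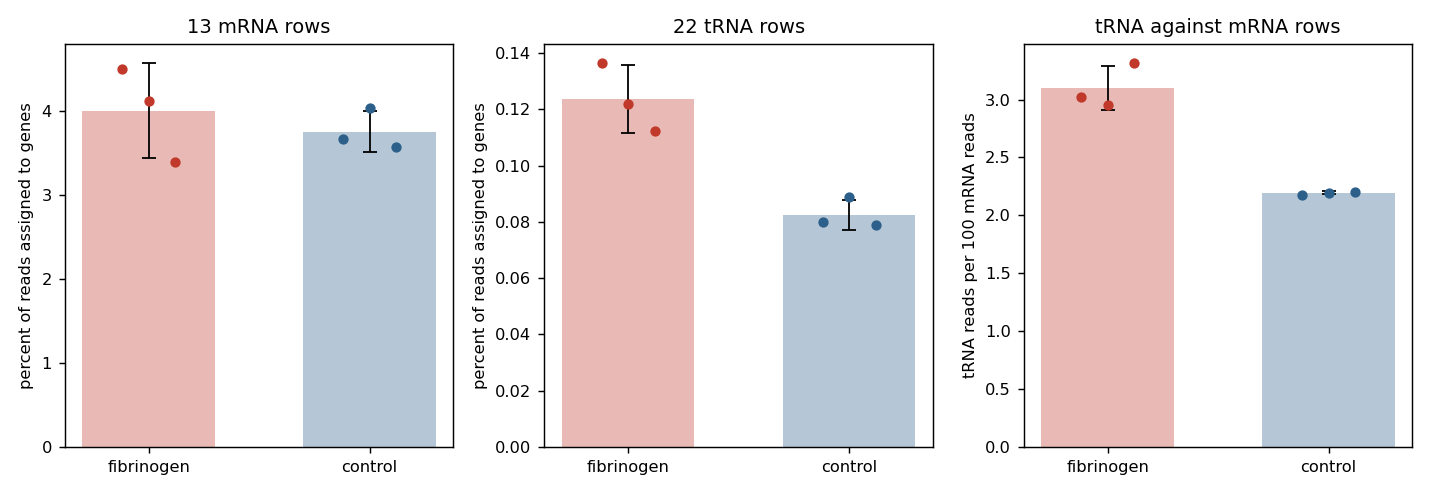
Share of reads on mitochondrial mRNA and tRNA genes (percent of reads assigned to genes) and tRNA reads per 100 mRNA reads, for fibrinogen and control libraries. Bars are means, error bars are SD (n = 3 each) and points are libraries. The mRNA shares of the groups overlap, whereas the 3 fibrinogen libraries lie above the 3 controls in the tRNA share and in the tRNA to mRNA ratio.

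Gene by gene, 9 mitochondrial tRNAs rose and none of the 13 mRNAs or 2 rRNAs passed the test, by limma on log2(RPKM + 1) with Benjamini-Hochberg adjustment over 14710 genes and a threshold of 0.05. The 9 were among 21 tRNAs tested, and across all genes tested 5.87% were called higher and 5.62% lower (11.5% in either direction). The median log2 change was 0.50 over the tested tRNAs, 0.07 over the mRNAs and -0.01 over all genes tested. Of the 36 mitochondrial genes tested, 13 lay higher in every fibrinogen library than in any control, where 17.4% of all genes tested did so. They were 11 tRNAs and the mRNAs mt-Nd2 and mt-Nd3. Only mt-Tk lay below all controls, where 17.7% of all genes did. On the plus strand 5 of 13 tested tRNAs were called higher, and on the minus strand 4 of 8.

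The 9 tRNAs that rose lay beside or near one another on the genome. Those for isoleucine (mt-Ti), glutamine (mt-Tq) and methionine (mt-Tm) stand side by side between mt-Nd1 and mt-Nd2, and those for tryptophan (mt-Tw), alanine (mt-Ta), asparagine (mt-Tn) and cysteine (mt-Tc) lie between mt-Nd2 and mt-Co1, around the origin of light-strand replication. Of the 8 tRNA genes between mt-Nd1 and mt-Co1, 7 were called, and the other was mt-Ty, the tRNA for tyrosine. The remaining called genes, for histidine (mt-Th) and for serine with the anticodon GCT (mt-Ts2), are neighbours between mt-Nd4 and mt-Nd5. Not every tRNA gene could be counted equally well. The genes mt-Ts1, mt-Td, mt-Tk, mt-Tg and mt-Tr lie wholly inside the stretch copied on chromosome 1, described below, so their reads may have been assigned elsewhere or left out. Adjacent genes may also share reads, so calls of neighbours need not be independent. The sequences of the 9 are shown because they are the mitochondrial genes called higher and are short enough to be read whole. They are reference transcripts of GENCODE on GRCm39, written 5′ to 3′ as DNA letters with the anticodon in capitals, and all 37 mitochondrial genes of the table had the same start, end and strand there.
mt-Ti: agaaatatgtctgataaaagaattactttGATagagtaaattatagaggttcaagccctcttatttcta
mt-Tq: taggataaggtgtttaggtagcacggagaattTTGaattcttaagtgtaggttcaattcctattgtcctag
mt-Tm: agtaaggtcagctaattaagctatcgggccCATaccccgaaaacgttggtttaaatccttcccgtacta
mt-Tw: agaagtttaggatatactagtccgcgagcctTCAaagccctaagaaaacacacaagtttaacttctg
mt-Ta: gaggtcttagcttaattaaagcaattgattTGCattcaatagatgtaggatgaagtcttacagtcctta
mt-Tn: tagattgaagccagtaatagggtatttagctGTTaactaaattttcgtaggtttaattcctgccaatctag
mt-Tc: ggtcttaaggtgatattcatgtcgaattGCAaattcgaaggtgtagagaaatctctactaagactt
mt-Th: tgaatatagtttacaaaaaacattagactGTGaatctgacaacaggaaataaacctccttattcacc
mt-Ts2: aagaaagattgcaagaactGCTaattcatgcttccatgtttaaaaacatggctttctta

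The widest difference was at mt-Tq (chromosome MT, 3772 to 3842, minus strand). It stood at 1865, 1587 and 1577 RPKM with fibrinogen and at 676, 789 and 690.0 RPKM in controls. The log2 change was 1.22 ± 0.11 (SE), with an adjusted p of 0.0027 by limma. Every fibrinogen library had more than any control by a wide margin, and mt-Tq was the 1 tRNA called under all 19 alternative settings. Its neighbour mt-Ti (3706 to 3774, plus strand), which overlaps it by 3 bases, was at 117, 123 and 103 RPKM with fibrinogen and 62.2, 73.5 and 50.2 RPKM in controls (log2 change 0.89 ± 0.15, limma adjusted p = 0.0140). On the other side, mt-Tm (3845 to 3913, plus strand), which serves both initiation and elongation of translation, was among the most abundant tRNA genes at 4634, 3954 and 4091 RPKM with fibrinogen and 2798, 2790 and 2045 RPKM in controls (0.74 ± 0.16, limma adjusted p = 0.0305). Again the groups did not overlap, but mt-Tm kept its call in 11 of the 19 alternatives.

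The called tRNA genes between mt-Nd2 and mt-Co1 had log2 changes of 0.62 to 0.70, smaller than that of mt-Tq. The tRNA for tryptophan, mt-Tw (4950 to 5016, plus strand), had 307, 296 and 246 RPKM with fibrinogen and 156, 200.3 and 198 RPKM in controls (log2 change 0.62 ± 0.13, limma adjusted p = 0.0314). On the minus strand beside it, mt-Ta (5018 to 5086) had 1130, 1049 and 922 RPKM with fibrinogen and 545, 694 and 677 RPKM in controls (0.70 ± 0.13, limma adjusted p = 0.0211). In both genes the lowest fibrinogen library lay above the highest control. For asparagine, mt-Tn (5089 to 5159, minus strand) was at 1366, 1253 and 1162 RPKM with fibrinogen and 706, 861 and 817 RPKM in controls (0.67 ± 0.12, limma adjusted p = 0.0164). For cysteine, mt-Tc (5192 to 5257, minus strand) was at 1959, 1803 and 1755 RPKM with fibrinogen and 1054, 1242 and 1186 RPKM in controls (0.67 ± 0.11, limma adjusted p = 0.0138). The groups were again apart. The last of the cluster, mt-Ty (5260 to 5326, minus strand), the most abundant tRNA gene, had 4226, 4058 and 3444 RPKM with fibrinogen and 2766, 3237 and 2942 RPKM in controls. Its groups did not overlap either, but its log2 change of 0.39 ± 0.13 missed the threshold (limma adjusted p = 0.09996).

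Away from this stretch, mt-Th (11546 to 11612, plus strand) had 120.1, 90.3 and 106 RPKM with fibrinogen and 51.9, 56.9 and 68.1 RPKM in controls (log2 change 0.83 ± 0.14, limma adjusted p = 0.0147). Next to it, mt-Ts2 (11613 to 11671, plus strand), whose tRNA lacks one arm of the cloverleaf, had 137, 96.9 and 114 RPKM with fibrinogen and 62.0, 63.8 and 70.2 RPKM in controls (0.81 ± 0.13, limma adjusted p = 0.0138). Both were higher in every fibrinogen library. The third gene of that row, mt-Tl2 for leucine, had a log2 change of 0.18 and overlapping groups. The tRNA for glutamate, mt-Te (14071 to 14139, minus strand), lies between mt-Nd6 and mt-Cytb and stood at 2582, 2133 and 1711 RPKM with fibrinogen and 1296, 1431 and 1595 RPKM in controls. These groups were apart, yet the spread among the fibrinogen libraries was wide and the log2 change of 0.56 ± 0.17 was not called (limma adjusted p = 0.0783).

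**Figure D2:**
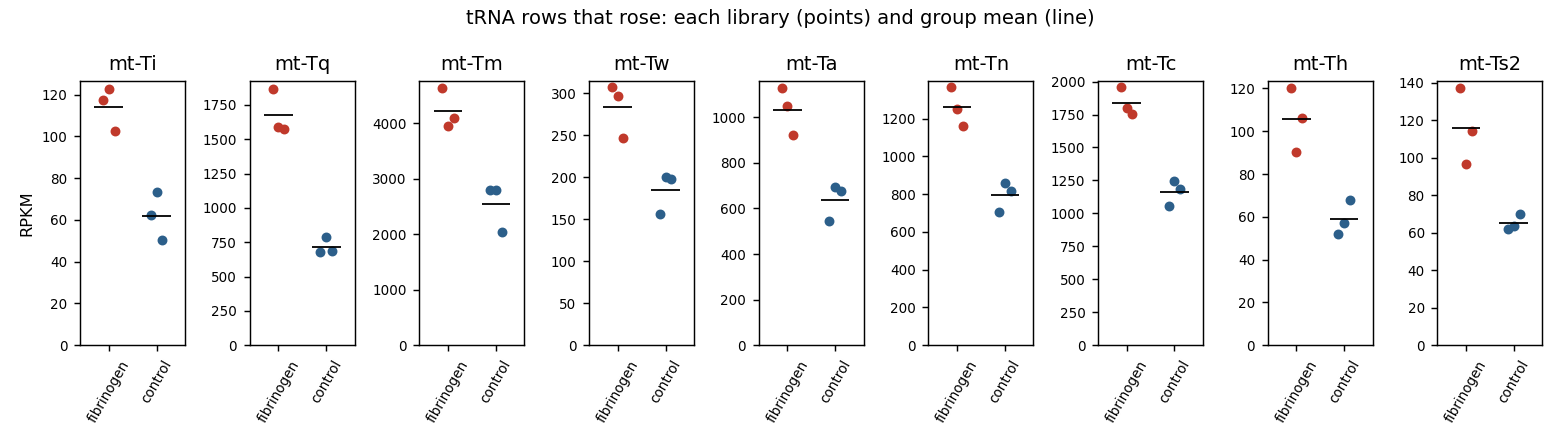
Level in RPKM of the 9 mitochondrial tRNA genes that rose, in fibrinogen and control libraries. Points are libraries, lines are group means and each panel has its own axis from 0. In each panel the 3 fibrinogen points lie above the 3 control points.

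The groups of the other tRNA genes overlapped, except at mt-Tk. The tRNAs for valine (mt-Tv), leucine (mt-Tl1), threonine (mt-Tt) and proline (mt-Tp) had between 100.4 and 562 RPKM, with log2 changes of -0.12 to -0.03, and none passed the test. For arginine, mt-Tr (9808 to 9875, plus strand) had 139, 105 and 96.8 RPKM with fibrinogen and 217, 226 and 114 RPKM in controls. Only 2 of its controls lay above the fibrinogen libraries, the log2 change of -0.66 ± 0.27 was not called (limma adjusted p = 0.161), and without control replicate 3 it was called at -0.97 (limma adjusted p = 0.0146). The tRNA for serine on the minus strand, mt-Ts1, had 53.1 to 79.2 RPKM with fibrinogen and 36.4 to 54.6 RPKM in controls, with overlapping groups. The 4 tRNA genes mt-Tf, mt-Td, mt-Tk and mt-Tg had fewer than 15 reads in at least 1 library. The single lower call, mt-Tk for lysine, rested on 2, 2 and 1 reads with fibrinogen and 3, 4 and 4 reads in controls. It passed the filter through the control libraries alone, its reads are too few for a fold change, and it lost its call in 10 of its 18 alternatives.

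**Figure D3:**
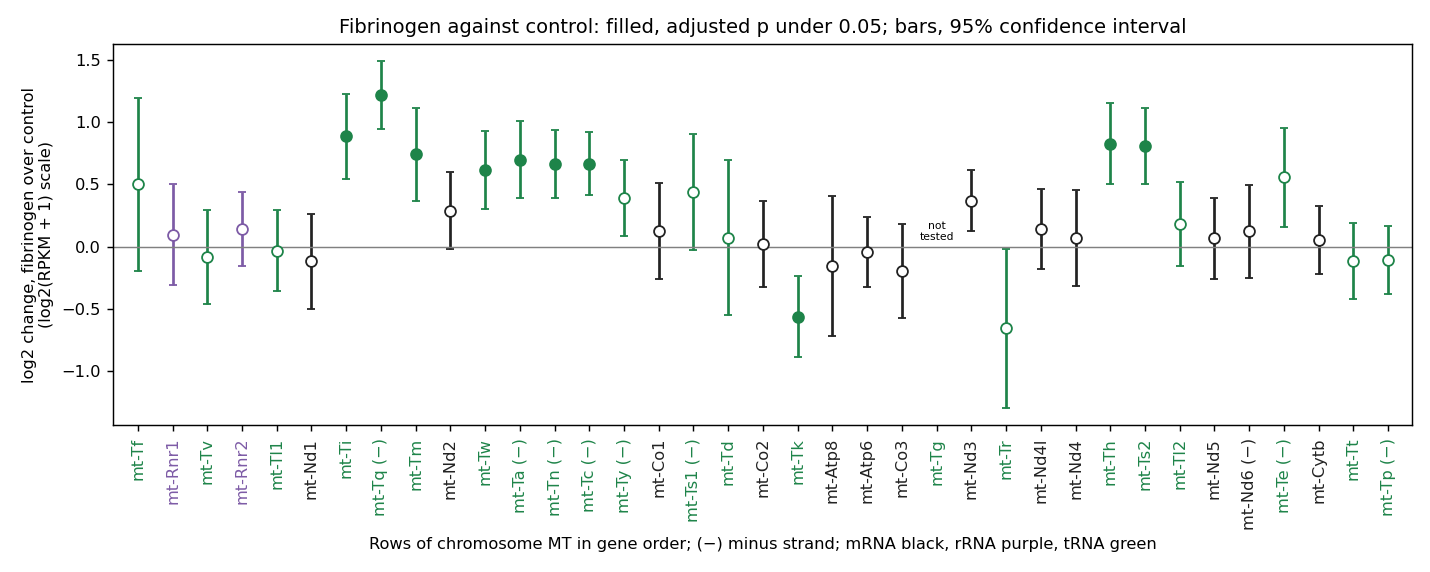
Log2 change, fibrinogen over control, of each mitochondrial gene in genome order, on the log2(RPKM + 1) scale. Bars are 95% confidence intervals from limma and filled points had an adjusted p under 0.05. The filled points above 0 are 9 tRNAs, 7 of them between mt-Nd1 and mt-Co1, and no mRNA or rRNA is filled. The filled point below 0 is mt-Tk, which rested on 1 to 4 reads per library.

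Some tRNA genes were also set against an mRNA gene nearby in the same library, which in some cases was not the adjacent gene. All of them were tRNAs whose own groups were already apart, and no mRNA was called. Separation of these ratios was thus close to fixed in advance and adds no support. No tRNA with overlapping groups was treated in this way. The RPKM of mt-Tq was 0.349, 0.323 and 0.372 of that of mt-Nd2 with fibrinogen and 0.180, 0.200 and 0.167 in controls. For mt-Ti over mt-Nd1 the ratio was 0.0193, 0.0211 and 0.0232 with fibrinogen and 0.0107, 0.0114 and 0.0093 in controls. For mt-Th over mt-Nd5 it was 0.0241, 0.0198 and 0.0275 with fibrinogen and 0.0126, 0.0124 and 0.0168 in controls. In each of these the fibrinogen libraries lay above all controls, as they also did for mt-Tm and mt-Tw over mt-Nd2, mt-Tc and mt-Ty over mt-Co1, mt-Ts2 over mt-Nd5 and mt-Te over mt-Nd6.

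Several measurements bear on how these tRNA values can be read. Each tRNA gene is 59 to 75 bases long, and how a read that runs over a tRNA gene into its neighbours was assigned is not given in the sources used here. The same holds for the strand setting of the counting, so reads of a gene and of a transcript that runs over it on the other strand cannot be told apart. Of 465 tested genes under 100 bases outside chromosome MT, 13 were called higher and 32 lower, with a median log2 change of -0.18, where 5.87% of all genes were called higher and 5.62% lower. The part of gene length in the tRNA result was not tested. Some RNAs without a poly(A) tail, picked after their values were seen, did rise. Rn7s1, an RNA of the signal recognition particle with near-identical copies elsewhere in the genome, was at 48.2, 61.6 and 28.5 RPKM with fibrinogen and 4.53, 1.71 and 1.72 RPKM in controls (log2 change 3.71 ± 0.36, limma adjusted p = 0.0027). Rn7sk, an inhibitor of transcription elongation, was at 3.30, 3.67 and 2.35 RPKM with fibrinogen and 0.474, 0.155 and 0.283 RPKM in controls (1.65 ± 0.16, limma adjusted p = 0.0027). Every fibrinogen library exceeded every control for both, and their part in the tRNA result was not tested. The mRNA without such a tail, mt-Nd6, had a log2 change of 0.12 and was not called (limma adjusted p = 0.653). With the strand setting unknown, reads counted on mt-Nd6 may come in part from the other strand. Its value thus need not be that of an RNA without a tail. How many RNAs of this kind did not rise was not counted. The tRNA count also depends on single libraries. Without control replicate 1 only 1 mitochondrial gene was called higher (mt-Tq), without fibrinogen replicate 1 there were 2 (mt-Tq and mt-Ts2), and without another library 6 to 9. Calls over all 14710 genes, in either direction, also fell, from 1689 to 466 without control replicate 1 and to 494 without fibrinogen replicate 1. Without another library they were 576 to 2300. With the replicate number as a block 4 were called higher, where 1.93% of all genes were. By limma-voom on the reads recovered from RPKM and length, 11 were called higher and 0 lower, where 7.18% of all genes were called higher and 6.74% lower.

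The mRNA genes encode 7 subunits of complex I (NADH dehydrogenase), 1 of complex III, 3 of complex IV (cytochrome c oxidase) and 2 of complex V (ATP synthase). None passed the test, and the log2 changes ran from -0.20 for mt-Co3 to 0.37 for mt-Nd3. In 10 of the 13 the highest level of all 6 libraries was in fibrinogen replicate 1, and in 9 the lowest was in fibrinogen replicate 3, so the spread within the fibrinogen group spanned much of the range of the controls.

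The highest of them as deposited was mt-Nd6, the complex I subunit on the minus strand, which had 12147, 10665 and 9032 RPKM with fibrinogen and 9617, 10461 and 9026 RPKM in controls (log2 change 0.12 ± 0.16, limma adjusted p = 0.653). By mean level it ranked 2 among all 34250 genes, but with the reads of the nuclear copy added mt-Atp6 stood above it in all 6 libraries. On the plus strand, mt-Nd1 had 6083, 5832 and 4434 RPKM with fibrinogen and 5791, 6453 and 5405 RPKM in controls. The small complex I subunit mt-Nd4l had 5955, 5482 and 4736 RPKM with fibrinogen and 4592, 5287 and 4763 RPKM in controls. The groups overlapped in all of these genes. Next came mt-Nd2, with 5350, 4907 and 4238 RPKM with fibrinogen and 3752, 3939 and 4134 RPKM in controls. The groups of mt-Nd2 were apart, with a log2 change of 0.29 ± 0.13 that was not called (limma adjusted p = 0.195), and its ratio to mt-Nd1 was 0.879, 0.841 and 0.956 with fibrinogen and 0.648, 0.611 and 0.765 in controls. For the large complex I subunit mt-Nd5 the levels were 4988, 4573 and 3863 RPKM with fibrinogen and 4120, 4592 and 4047 RPKM in controls.

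Outside complex I, mt-Co1, the catalytic subunit of cytochrome c oxidase, stood at 4492, 4012 and 3120 RPKM with fibrinogen and 3463, 3879 and 3225 RPKM in controls. The cytochrome b gene mt-Cytb stood at 4012, 3760 and 3361 RPKM with fibrinogen and 3510, 3680 and 3514 RPKM in controls. For mt-Nd4, a proton-pumping subunit of complex I, the levels were 3579, 3270 and 2482 RPKM with fibrinogen and 2857, 3247 and 2734 RPKM in controls. The groups overlapped in each. By mean RPKM over the 6 libraries the order was mt-Nd6, mt-Nd1, mt-Nd4l, mt-Nd2, mt-Nd5, mt-Co1, mt-Cytb and mt-Nd4. Only mt-Nd6 had a range apart from that of the next gene, and between each other pair of neighbours in this order the ranges overlapped, with mt-Co1 above mt-Cytb in 3 of the 6 libraries.

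The other 5 mRNA genes lay far lower, below 50 RPKM in every library, with a gap between mt-Nd4 at a mean of 3028 RPKM and mt-Nd3 at 39.1 RPKM. The complex I subunit mt-Nd3 had 49.4, 44.9 and 38.6 RPKM with fibrinogen and 32.2, 33.6 and 36.1 RPKM in controls. Its groups were apart, with a log2 change of 0.37 ± 0.10 that was not called (limma adjusted p = 0.0648) except with library weights. The ATP synthase subunits showed no such separation. There, mt-Atp8 had 39.0, 29.3 and 20.5 RPKM with fibrinogen and 40.4, 30.0 and 27.3 RPKM in controls, and mt-Atp6 had 27.5, 24.4 and 20.1 RPKM with fibrinogen and 25.0, 26.1 and 22.9 RPKM in controls. Of the cytochrome c oxidase subunits, mt-Co2 had 18.7, 15.7 and 11.9 RPKM with fibrinogen and 14.6, 15.1 and 15.05 RPKM in controls, and mt-Co3 had 5.57, 4.13 and 3.44 RPKM with fibrinogen and 5.87, 4.34 and 5.16 RPKM in controls. The fibrinogen and control libraries overlapped in these genes.

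**Figure D4:**
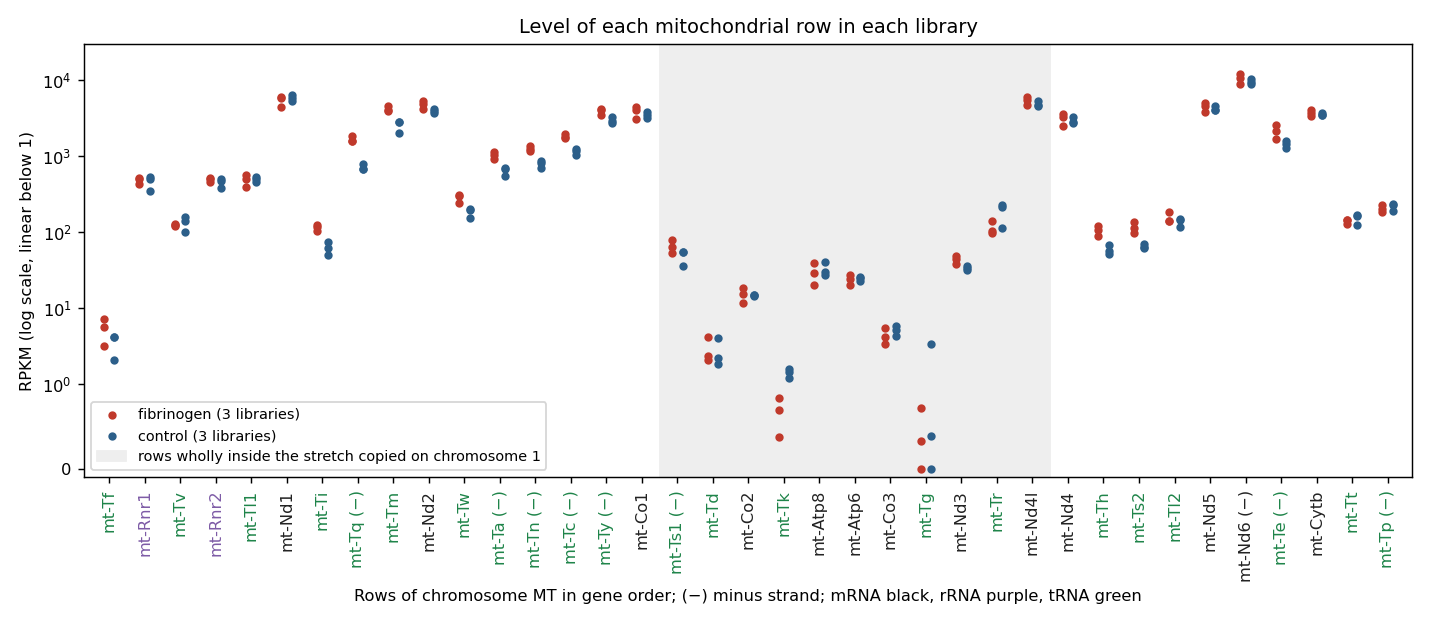
Level of each mitochondrial gene in RPKM (log axis, linear below 1) in each library, in genome order, for fibrinogen and control libraries. Shading marks genes wholly inside the stretch that has a copy on chromosome 1. The 5 mRNAs below 50 RPKM all lie in the shaded stretch, and mt-Nd4l is the shaded mRNA that does not.

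All 5 of these genes lie in a stretch of mtDNA that is also present in the nuclear genome. By BLAST of the mitochondrial genome against the nuclear chromosomes (GRCm39), bases 6390 to 11042 of chromosome MT had a copy on chromosome 1 with 99.9% identity over 4653 bases, with 2 mismatches and 1 gap. The mismatches lay in mt-Co1 and mt-Nd3 and the gap in mt-Tr, so mt-Co2, mt-Atp8, mt-Atp6, mt-Co3 and mt-Nd4l have no base by which a read inside them could be told from the copy. The table lists 7 genes on chromosome 1 that correspond to this stretch. Their levels must therefore be read together with those of the mitochondrial genes, and how reads that fit both places were treated is not given in the sources used here.

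The gene Gm10925 (chromosome 1, 24613974 to 24614651 on GRCm38, at the place of mt-Atp6 in the copy) was at 13703, 12398 and 10988 RPKM with fibrinogen and 12497, 14142 and 10702 RPKM in controls. The copy of mt-Co2, Gm28661, was at 5184, 5126 and 3975 RPKM with fibrinogen and 4942, 5062 and 4853 RPKM in controls. The copy of mt-Co3, Gm28437, was at 3945, 3317 and 2613 RPKM with fibrinogen and 3173, 3682 and 2960 RPKM in controls. All of these were far above the mitochondrial gene with the same sequence, and none passed the test. The copy of the end of mt-Co1, Gm29216, was at 2423, 2080 and 1957 RPKM with fibrinogen and 2183, 2217 and 1788 RPKM in controls. At mt-Nd4l the order was the other way, with the copy Gm10222 at 127, 116 and 93.3 RPKM with fibrinogen and 89.6, 101.1 and 110.7 RPKM in controls far below the mitochondrial gene. The 7 copies held 1.72%, 1.56% and 1.32% of the reads with fibrinogen and 1.55%, 1.71% and 1.38% in controls. A smaller copy of mt-Co2 on chromosome 2, Gm13341, had 42.9 to 59.1 RPKM with fibrinogen and 42.1 to 60.2 RPKM in controls.

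**Figure D5:**
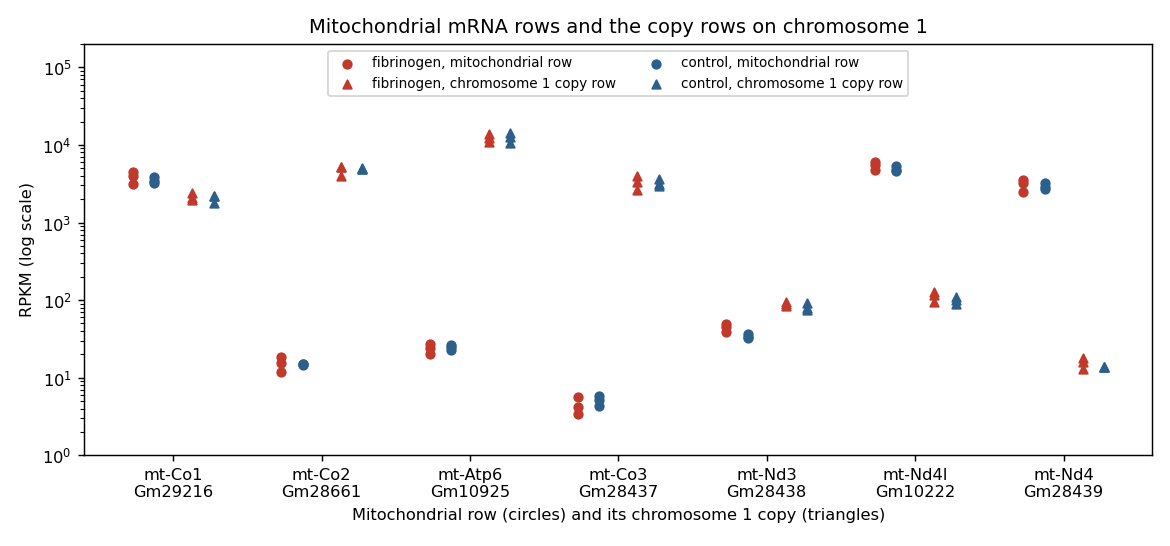
Level in RPKM (log axis) of mitochondrial mRNA genes (circles) and of the chromosome 1 genes that copy them (triangles), in fibrinogen and control libraries. For mt-Co2, mt-Atp6 and mt-Co3 the copy lies far above the mitochondrial gene, and for mt-Nd4l and mt-Nd4 far below it. Fibrinogen and control points overlap for each copy.

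With the reads of each copy added to its mitochondrial gene, mt-Atp6 stood at 13670, 12367 and 10959 RPKM with fibrinogen and 12467, 14106 and 10678 RPKM in controls. In the same way mt-Co2 stood at 5180, 5119 and 3969 RPKM with fibrinogen and 4934, 5054 and 4846 RPKM in controls, and mt-Co3 at 3946, 3317 and 2613 RPKM with fibrinogen and 3174, 3682 and 2961 RPKM in controls. The summed mt-Co2 and mt-Co3 lay among the more abundant mitochondrial mRNAs, and the summed mt-Atp6 lay above mt-Nd6 in all 6 libraries. The groups still overlapped in each. The sum for mt-Nd3, at 144, 134 and 123 RPKM with fibrinogen and 106, 124 and 115 RPKM in controls, no longer had groups apart. The same 10 mitochondrial genes were called after the addition. All of them are tRNAs, to which no reads of a copy were added, so this outcome was close to fixed in advance and adds no support. Of the called tRNAs, mt-Ti, mt-Tq, mt-Tm and mt-Tw had no 100-base window with an exact nuclear match, whereas 18.1% to 32.1% of the windows over the other 5 that rose had one somewhere in the nuclear genome.

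The ribosomal RNAs are the RNA parts of the mitochondrial ribosome. The small-subunit rRNA mt-Rnr1 stood at 525, 496 and 437 RPKM with fibrinogen and 534, 501 and 348 RPKM in controls (log2 change 0.10 ± 0.17, limma adjusted p = 0.747). The large-subunit rRNA mt-Rnr2 stood at 525, 496 and 454 RPKM with fibrinogen and 498, 469 and 377 RPKM in controls (0.14 ± 0.13, limma adjusted p = 0.497). In both the lowest value was that of control replicate 3, and the groups overlapped. Per length they were below mt-Nd4 in every library, in libraries made from mRNA.

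The nuclear genes that work with these transcripts were compared in the same fit. Of 72 nuclear-encoded subunits of complexes I, III, IV and V, all tested, 1 was called higher and 0 lower with a median log2 change of 0.01, against 5.87% of all genes called higher and 5.62% lower. The 1 was Cox7a2, a small subunit of complex IV, with 11.9, 13.9 and 12.01 RPKM with fibrinogen and 10.5, 7.73 and 8.15 RPKM in controls (0.48 ± 0.12, limma adjusted p = 0.0489), and it lost its call under several alternatives. Abundant subunits gave no such difference. Ndufb9 of complex I had a log2 change of -0.32 (limma adjusted p = 0.114) and Ndufa5 of -0.08 (limma adjusted p = 0.712). For Uqcrb and Uqcrh of complex III the changes were 0.07 and 0.10, and for the ATP synthase subunits Atp5h and Atp5b 0.10 and 0.02, with limma adjusted p of 0.514 to 0.930. On the same scale the log2 change was -0.09 for Actb and 0.04 for Gapdh, neither of them called.

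Among 46 factors of mitochondrial transcription, mtDNA maintenance, RNA processing and RNA decay, 38 were tested, of which 3 were called higher and 0 lower, with a median log2 change of -0.02. The share called higher was near that of all genes. Mterf2, a member of the mitochondrial transcription termination factor family that binds mtDNA, was at 6.69, 7.13 and 6.83 RPKM with fibrinogen and 2.75, 2.62 and 3.87 RPKM in controls (0.96 ± 0.12, limma adjusted p = 0.0069). Rexo2, which degrades short RNA fragments in mitochondria, was at 17.6, 17.3 and 18.1 RPKM with fibrinogen and 12.02, 13.3 and 13.9 RPKM in controls (0.41 ± 0.08, limma adjusted p = 0.0204). Mgme1, an exonuclease that trims mtDNA ends, was at 3.43, 3.07 and 3.15 RPKM with fibrinogen and 2.30, 2.17 and 2.10 RPKM in controls (0.40 ± 0.08, limma adjusted p = 0.0258). The groups did not overlap in these genes. Of the factors that take part in tRNA excision, Elac2, Trmt10c and Hsd17b10 were tested and not called. These are not the full set, and Prorp, which was also listed, is not described here.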

How the data were processed

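Libraries were made with a kit for stranded mRNA, and the authors deposited RPKM values per gene, with exon lengths. Per the labels, reads were trimmed with Trimmomatic 0.39 and aligned with STAR 2.7.6a to GRCm38 (mm10), and featureCounts 1.5.1 and edgeR 3.12.1 were used, whereas in the methods both the STAR release and the mouse build differ. Whether counting used strand, and what was done with multi-mapping reads, is not given in the sources used here. Groups were taken from the sample titles. No label calls the libraries separate cultures. Their spread, and with it each p-value, may thus be technical in part.

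RPKM is not a count, so log2(RPKM + 1) was tested with limma 3.58.1 (R 4.3.3), trended prior variance, two-sided, over the 14710 genes that reached 1 RPKM in 3 or more libraries, and p-values were adjusted over all of them. Log2 changes are fibrinogen minus control, and this scale understates changes of low genes. RPKM times length gave whole reads for 100% of values above 0, within 0.001 reads, and class shares were computed from these reads. The total per library limits the precision of each value, and read counts do not show independent molecules. Nuclear copies were found with BLAST+ 2.17.0 on GRCm39, and the copy rows were matched with Python 3.11.15. The fit was also run on simulated reads, drawn independently with the same fixed dispersion for all genes. That need not match the spread of these libraries, and no outcome is given here.

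The members and gene lists were chosen with earlier results of these data known. Values are given for all mRNAs and rRNAs, every called tRNA and the 6 most abundant tRNAs, up to 4 called genes of each nuclear list (or the 2 most abundant), up to 4 nuclear copies by level, Actb and Gapdh. The other copies, tRNAs, Rn7s1 and Rn7sk named were picked after their values were seen. Alternative settings covered the pseudocount, the filter, the scaling, the prior variance, library weights, a replicate block and each library left out. Limma-voom on the recovered reads, adding the reads of the copies and rescaling to reads outside chromosome MT and its copies were chosen after seeing the data.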

Additional observations from a re-analysis of the deposited data

How the results depend on the processing

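The 9 higher mitochondrial calls became 4 with no filter on low values and 1 to 9 with 1 library left out, lowest without control replicate 1, 2 without fibrinogen replicate 1. Over all genes, calls in either direction were 1689 of 14710 in the main fit and 935 of 32364 with no filter. With 1 library left out they were 466 to 2300 of 14710. The lower call, mt-Tk, was absent (0) at a pseudocount of 0.1 RPKM, with no filter, with a mean of at least 5 RPKM and with limma-voom. It was also lost whichever library was left out. Library weights gave 2 lower calls, mt-Tk and mt-Tr. Without control replicate 3 the 1 lower call was mt-Tr, and without any other library there was none. Higher nuclear respiratory chain subunits were 0 at a pseudocount of 0.1 RPKM, with no filter and with constant prior variance, 5 with library weights, 2 with limma-voom and 0 to 1 with 1 library left out. Lower ones were 1 with quantile normalization, 9 with library weights and 0 to 2 with 1 library left out. Expression factors were 8 higher and 2 lower with library weights, and 1 to 3 higher and 0 to 1 lower with 1 library left out. Library weights called 4041 genes in all, against 1689. The signs of uncalled changes turned under quantile normalization for mt-Co1 (-0.10), mt-Nd4 (-0.17), mt-Nd5 (-0.13) and mt-Cytb (-0.18), with library weights for mt-Rnr1 (-0.084), and with the copies' reads added for mt-Co2 (-0.067). The causes were not tested.

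With 1 library left out, signs also turned. The log2 change ran from -0.21 to 0.022 for mt-Nd1, -0.12 to 0.18 for mt-Co2, -0.38 to 0.074 for mt-Atp8, -0.15 to 0.070 for mt-Atp6, -0.045 to 0.22 for mt-Nd4, -0.015 to 0.17 for mt-Nd5, -0.0050 to 0.12 for mt-Cytb, -0.094 to 0.21 for mt-Rnr1, -0.28 to 0.049 for mt-Tv, -0.14 to 0.10 for mt-Tl1 and -0.16 to 0.31 for mt-Td. All these genes missed the threshold throughout.

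The replicate numbers showed no sign of pairing the libraries, which 3 libraries per group cannot exclude. Deviations of same-numbered libraries correlated at 0.06, -0.24 and -0.07, and 0 of the 6 libraries correlated best with their own number. With the replicate number as a block, 4 mitochondrial genes were called higher and 0 lower, 0 subunits were called higher and 1 factor higher. The smallest chi-square per degree of freedom between 2 libraries was 12.7, and each was counted as its own sample. Genes with under 15 reads, mt-Tf, mt-Td, mt-Tk and mt-Tg, are too shallow for a difference to be read, and 3 libraries against 3 limit the rest.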
